A study of Homo sapiens with 21 samples.

Results

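The phospholipid and triacylglycerol synthesis genes are 42 genes picked by symbol for the enzymes that build, remodel and break down glycerolipids, of 62656 genes in the deposited count table. Of these, 41 passed the filter on low counts and were tested, and GPAT3 had no count in any library. RNA was measured in SH-SY5Y cells, a human neuroblastoma line of wild-type genotype that had been differentiated for 11 days to a neuron-like state. Cells received 30 µM of PFOA, PFDA, PFOS, PFDS, 8:2 FTOH or 8:2 FTS for 24 h in solutions with 1% methanol, or were kept as Control, for which no methanol content is stated. PFOA and PFDA are perfluoroalkyl carboxylic acids, PFOS and PFDS are the sulfonic acids, the second of each pair having the longer chain, and 8:2 FTS and 8:2 FTOH are fluorotelomers with a sulfonic acid and an alcohol head group. Each of the 7 groups had 3 libraries. Whether the 3 came from separate cultures is not stated, so each p-value reflects spread between libraries that may be only technical.

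Glycerolipids share a trunk in which glycerol-3-phosphate acyltransferases and then AGPAT enzymes make phosphatidic acid. Lipins turn phosphatidic acid into diacylglycerol, which DGAT enzymes store as triacylglycerol or which receives choline or ethanolamine from the CDP-choline and CDP-ethanolamine (Kennedy) branches, while CDP-diacylglycerol synthases send phosphatidic acid towards phosphatidylinositol and cardiolipin. Lysophospholipid acyltransferases then exchange the fatty acids of finished phospholipids, a process that shapes neuronal and synaptic membranes.

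Total counts ran from 7680024 (8:2 FTOH replicate 3) to 30429746 (PFOS replicate 1), against 22179910 to 24905803 in the controls. The mitochondrial share of counts was 6.33% in control replicate 3 and 6.11% in 8:2 FTOH replicate 3, 5.40% in PFDA replicate 2, 5.24% in PFDS replicate 1, and 3.37% to 4.37% in the other 17 libraries. Control replicate 3 and 8:2 FTOH replicate 3 are also the 2 libraries that the authors' normalized table does not hold. The 12 sympathetic neuron and adrenergic neuroblastoma markers were all tested and summed to 5803 to 6249 CPM (counts scaled to the library total) in the controls. They were uneven, with TH at 0.755, 0.545 and 0.476 CPM and DBH at 1121.6, 1234.5 and 1082.7, both named after their values were seen. The 12 mesenchymal neuroblastoma markers summed to 484 to 533 CPM in the controls, of which TWIST1, also named after its values were seen, gave 273, 301 and 298. The 8 cycling cell markers summed to 1954 to 2092 CPM in the controls. The 9 Schwann, glial, endothelial and blood markers summed to 9.90 to 13.5 CPM over all libraries, with HBB at 0 in every one.

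The bases before the first RefSeq start site are shown for AGPAT1 and LPIN1, the 2 members with the smallest p for the mean of the 6 compounds, because the genes encode consecutive enzymes on phosphatidic acid. They come from RefSeq (GRCh38.p14), 250 bases each, read on the gene's strand from 5′ to 3′. AGPAT1 has 5 start sites in that table and LPIN1 has 3, and the counts do not tell which was used. AGPAT1 is from chr6:32178109-32178358 (minus strand) and LPIN1 from chr2:11677294-11677543 (plus strand). Capitals mark the CCAAT box, here on the reverse strand.
AGPAT1: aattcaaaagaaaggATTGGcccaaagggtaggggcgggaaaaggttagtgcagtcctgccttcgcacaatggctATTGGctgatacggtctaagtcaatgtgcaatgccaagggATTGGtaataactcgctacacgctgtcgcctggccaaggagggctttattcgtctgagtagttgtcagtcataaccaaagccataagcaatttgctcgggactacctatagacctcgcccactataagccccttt
LPIN1: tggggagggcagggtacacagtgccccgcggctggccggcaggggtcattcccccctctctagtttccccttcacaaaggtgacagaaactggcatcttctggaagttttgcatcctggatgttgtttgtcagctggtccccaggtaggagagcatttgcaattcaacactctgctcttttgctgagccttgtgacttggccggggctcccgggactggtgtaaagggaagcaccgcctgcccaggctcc

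In all, 4 motifs were searched on both strands in windows from 250 bases before to 50 after each start, which the table held for 33 members (49 windows). The CCAAT box (CCAAT) occurred in 15 of the 49 windows (30.6%, from 13 members), against 34.6% of all 35116 windows. The EGR site (GCGNGGGCG) occurred in 7 of 49 (14.3%, from 6 members), against 9.43%. The E-box (CACGTG) occurred in 4 of 49 (8.16%, for LPIN2, PEMT, PLA2G6 and PTDSS2), against 7.26%. The sterol regulatory element searched (TCACNCCAC) occurred in 1 of 49 (2.04%, for PNPLA2), against 1.13%. The AGPAT1 sequence above holds 3 CCAAT boxes, at 235, 175 and 135 bases before the start, whereas the LPIN1 sequence holds none of the 4 motifs. The motifs do not overlap one another in either sequence, and a match describes letters only.

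Levels per length were read as RPKM (CPM per kilobase of exon). The median control level of the 41 members tested was 6.72 RPKM, against 2.66 for all 24879 genes tested. Of the 42 members, 24 reached 5 RPKM and 7 were under 1. The highest were MBOAT2, a lysophospholipid acyltransferase, at 24.6 ± 1.58 RPKM (SD, n = 3 control libraries), and SELENOI, the selenoprotein that transfers phosphoethanolamine to diacylglycerol, at 23.5 ± 0.613. They were followed by the lysophosphatidate acyltransferases AGPAT5 at 21.98 ± 2.26 and AGPAT1 at 19.2 ± 1.41, and by CDS2, a CDP-diacylglycerol synthase, at 17.5 ± 0.606. The SDs of neighbours among these 5 overlap, so their order is a description.

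In most families the same member was the highest in every library, which gives an order and not a share of activity. Second members such as ETNK2 (4.93 RPKM) and PTDSS2 (4.04) were well expressed in the controls, while CHKB, CDS1 and DGAT2 were under 1 RPKM. Across all 21 libraries, CHKA was above CHKB (choline kinases), ETNK1 above ETNK2 (ethanolamine kinases), PTDSS1 above PTDSS2 (phosphatidylserine synthases), CDS2 above CDS1, DGAT1 above DGAT2 and LPIN1 above LPIN2 and LPIN3, in each case with ranges that did not overlap. LPIN1 stood at 12.2 ± 0.884 RPKM, LPIN2 at 4.27 ± 0.381 and LPIN3 at 0.285 ± 0.0687 in the controls. Among the enzymes that attach the head group to diacylglycerol, SELENOI was above CEPT1 (3.71 ± 0.416), which was above CHPT1 (1.76 ± 0.132), in all 21 libraries. PCYT1B, the isoform of the rate-setting phosphocholine cytidylyl transferase known from brain, was above PCYT1A in every library, at 7.60 ± 0.453 against 4.70 ± 0.233 RPKM in the controls, although their ranges over the 21 libraries overlapped. AGPAT3 and AGPAT4 could not be ordered: AGPAT3 was the higher in 11 of 21 libraries.

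GPAT3, the endoplasmic reticulum glycerol-3-phosphate acyltransferase known from fat tissue, was not detected. A total of 3 counts over all libraries would be 0.00786 CPM or 0.00217 RPKM, which is the limit that 0 counts allow, for counting error only. Its relatives GPAT4 and GPAM, the mitochondrial form, stood at 8.92 ± 0.479 and 7.28 ± 0.0895 RPKM, with GPAT4 the higher in 20 of 21 libraries. CDS1 was near the limit of detection, with 0 to 19 counts per library.

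**Figure D1:**
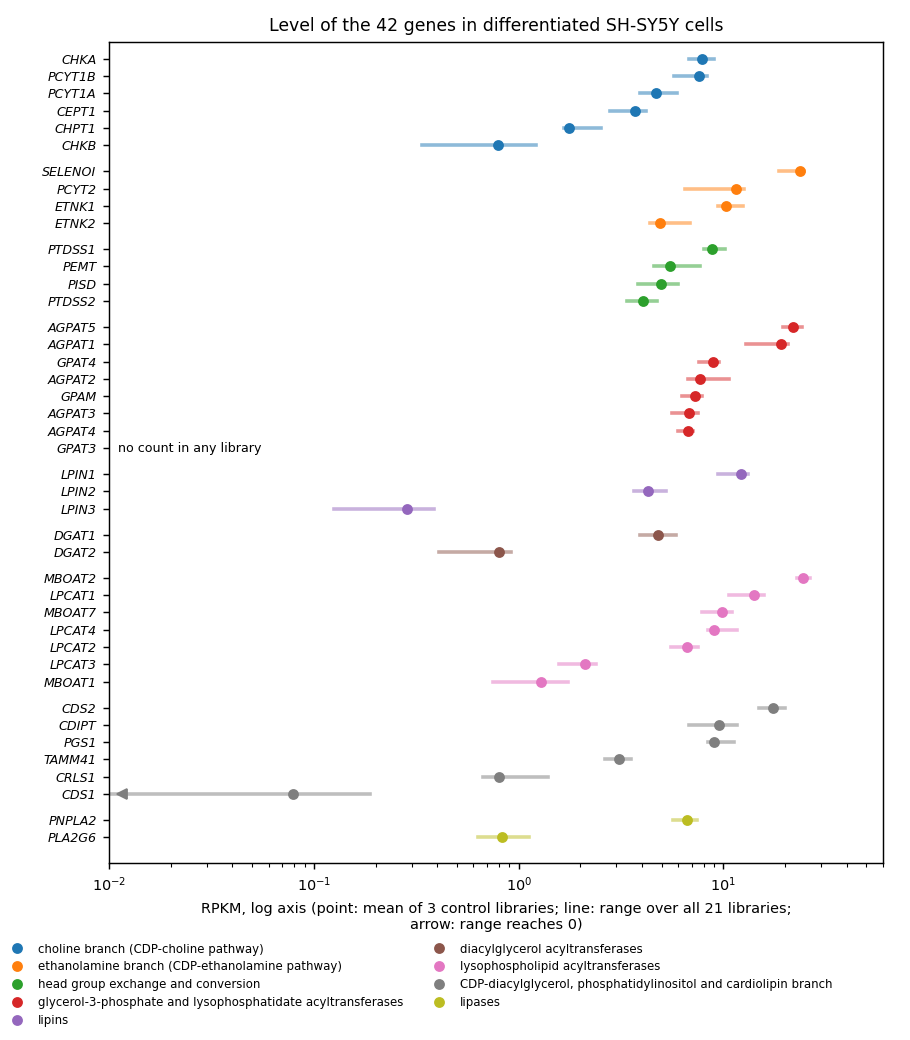
Level of each of the 42 genes in RPKM on a log axis, grouped by role; points are the mean of the 3 control libraries, lines the range over all 21 libraries, and an arrow a range that reaches 0. MBOAT2 (24.6 RPKM) and SELENOI (23.5 RPKM in mean) lie at the top, and CDS1, LPIN3 and GPAT3 at the bottom.

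Exons shared with other genes limit some of these values, because reads were counted without strand and reads over 2 genes were dropped. CHKB shares 72.5% of its exon bases with CHKB-CPT1B, LPCAT3 65.97% with EMG1 on the other strand, and CRLS1 61.5% with an unnamed gene, so their levels are uncertain. AGPAT1 shares 30.3% with PPT2-EGFL8 on the other strand, which had a mean of 1.77 CPM against 58.1 for AGPAT1. PCYT2 shares 28.4% with NPB, which had no counts. Reads over shared bases were lost to both genes, so a low count of the partner does not show how many were lost. The RPKM of AGPAT1 and PCYT2, and the rank of AGPAT1 among the highest members, may therefore be too low.

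The comparison of each compound with control asked whether exposure altered the expression of these genes. None of the 41 members passed an adjusted p of 0.05 for any single compound (edgeR quasi-likelihood test, Benjamini-Hochberg adjustment over 24879 genes). The share of all genes tested that passed was also small: 0.0322% for PFOA, 0.00804% for PFDA, 0.0241% each for PFOS and PFDS, 0.0322% for 8:2 FTOH and 0.0844% for 8:2 FTS. At an unadjusted p under 0.05 there were 4 of 41 members for PFOA (9.76%, against 10.1% of all genes tested), 4 for PFDA (9.76% against 8.43%), 5 for PFOS (12.2% against 6.83%), 2 for PFDS (4.88% against 5.58%), 8 for 8:2 FTOH (19.5% against 7.83%) and 4 for 8:2 FTS (9.76% against 7.77%). DESeq2 called 1 member, AGPAT1, for PFOA (adjusted p = 0.0485), of 18 members to which it gave an adjusted p, against 2.11% of all genes with one. It called 0 for each other compound, of 3 members with an adjusted p for PFDA and 39 or 40 for the rest, against 1.85% of all genes for PFDA, 0.0971% for PFOS, 0.193% for PFDS, 0.354% for 8:2 FTOH and 0.239% for 8:2 FTS. In the test for any difference among the 7 groups, 0 members passed with edgeR, against 0.0322% of all genes, and 5 were at an unadjusted p under 0.05 (12.2% against 5.91% of all genes). DESeq2 called 0 of 39 members there, against 0.69% of all genes.

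The median log2 difference of the members from control was -0.05 for PFOA, 0.00 to 2 decimals for PFOS, PFDA and PFDS, 0.01 for 8:2 FTS and -0.02 for 8:2 FTOH, beside 0.00 to 0.01 for all genes tested. The precision was better than for most genes: the 95% interval of the difference lay within 1.5-fold in either direction for 36 members with PFOA, 37 with PFOS, 36 with PFDA, 37 with PFDS, 36 with 8:2 FTS and 32 with 8:2 FTOH, beside 48.8% to 50.1% of all genes tested. For these members a change beyond 1.5-fold lies outside the interval, while smaller changes can lie within it. The widest intervals belonged to CDS1, LPIN3 and CHKB, whose levels were under 1 RPKM.

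**Figure D2:**
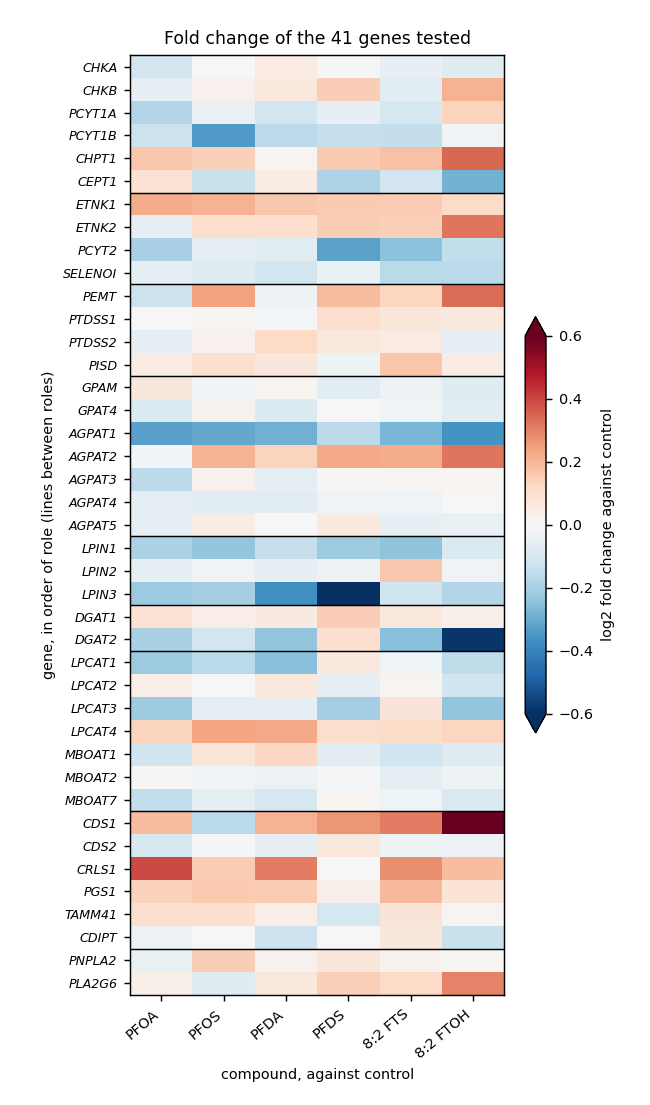
Log2 fold change of each of the 41 genes tested (rows, by role) for each compound against control (columns); red is higher and blue lower, and values beyond 0.6 take the end colours. No cell passed the test, AGPAT1 and LPIN1 are blue in all 6 columns and ETNK1 is red in all 6. Other members also keep their colour in all 6, such as PCYT1B, PCYT2 and SELENOI (blue) and LPCAT4 (red). The columns share the same 3 control libraries.

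Members whose 3 exposed libraries lay all above or all below the 3 controls numbered at most 4 of 41 in either direction, and those outside the rule for named genes are named here after their values were seen. For PFOA 0 were higher and 4 lower (LPIN1, PCYT1A, AGPAT1 and DGAT2), against 7.45% and 8.46% of all genes. PFOS gave 2 higher (PNPLA2 and PEMT) and 3 lower (LPIN1, AGPAT1 and PCYT1B), against 6.62% and 7.41%. PFDA gave 2 higher (LPCAT4 and CRLS1) and 3 lower (LPIN1, AGPAT1 and PCYT1B), against 7.92% and 7.85%. PFDS gave 0 higher and 2 lower (LPIN1 and PCYT1B), against 3.72% and 4.53%. For 8:2 FTS 1 was higher (CRLS1) and 4 lower (LPIN1, SELENOI, AGPAT1 and PCYT2), against 6.64% and 7.17%. For 8:2 FTOH 4 were higher (ETNK2, CHPT1, PEMT and PLA2G6) and 4 lower (CEPT1, SELENOI, AGPAT1 and DGAT2), against 5.95% and 6.98%. All 6 comparisons use the same 3 control libraries, so they are not independent of one another.

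AGPAT1 was the 1 member that passed the test for the mean of the 6 compounds against control. This contrast tests the average over the compounds and does not require a change with each. All 18 exposed libraries had 1% methanol and none is stated for the controls, so compound and solvent cannot be told apart in it. AGPAT1 (chr6:32168212-32178096, minus strand, hg38) adds the second fatty acid to lysophosphatidic acid to make phosphatidic acid. Its level was 64.6, 74.5 and 67.8 CPM in the 3 control libraries. The exposed libraries gave 56.3, 56.7 and 52.3 with PFOA, 54.2, 55.4 and 57.9 with PFOS, 61.2, 52.7 and 55.2 with PFDA, 55.1, 59.3 and 70.3 with PFDS, 58.5, 51.8 and 60.8 with 8:2 FTS, and 58.3, 55.6 and 46.4 with 8:2 FTOH. Of the 18 exposed libraries, 17 lay below the lowest control, and PFDS replicate 3 lay within the control range. The share of all genes with 17 such libraries was not counted, and all 18 are set against the same 3 controls.

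Averaged over the compounds, AGPAT1 fell by 0.29 on the log2 scale (SE 0.07, 95% interval -0.42 to -0.15, adjusted p = 0.0429, edgeR quasi-likelihood test), from 68.97 ± 5.06 CPM (SD, n = 3). In this contrast 0.35% of all genes passed (87 of 24879, 76 of them lower), and 5 members had an unadjusted p under 0.05 (AGPAT1, LPIN1, ETNK1, LPCAT4 and PCYT1B), 12.2% of the 41 against 9.98% of all genes. Against control the single compounds gave AGPAT1 log2 differences of -0.36 for 8:2 FTOH (adjusted p = 0.15), -0.33 for PFOA (0.178), -0.31 for PFOS (0.393), -0.29 for PFDA (0.365), -0.27 for 8:2 FTS (0.366) and -0.16 for PFDS (0.941) in the edgeR fit. No member had all 18 exposed libraries above, or all below, the 3 controls, as did 0.129% and 0.342% of all genes.

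The AGPAT1 call sat close to the threshold and was lost in many fits that left out 1 library. It was lost without control replicate 2, the highest control, where the log2 difference was -0.22 (adjusted p = 0.651), without control replicate 1 (-0.33, adjusted p = 0.129) and without control replicate 3 (-0.30, adjusted p = 0.0666) in edgeR. Calls over all genes went from 87 to 6 without control replicate 1, 4 without replicate 2 and 154 without replicate 3. The losses without control replicates 1 and 2 were thus not particular to AGPAT1. The AGPAT1 call was also lost, at log2 differences of -0.28 or -0.29, without 8:2 FTOH replicate 2 (adjusted p = 0.0555), 8:2 FTS replicate 1 (0.0569) or 2 (0.0557), PFDA replicate 3 (0.0603), PFDS replicate 2 (0.0605), PFOA replicate 3 (0.074), or PFOS replicate 1 (0.0629) or 2 (0.0565). Scaling by library size alone gave -0.24 (adjusted p = 0.105). With only the 19 libraries of the authors' normalized table, an alternative added after the data were seen, it was -0.28 (adjusted p = 0.0658).

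**Figure D3:**
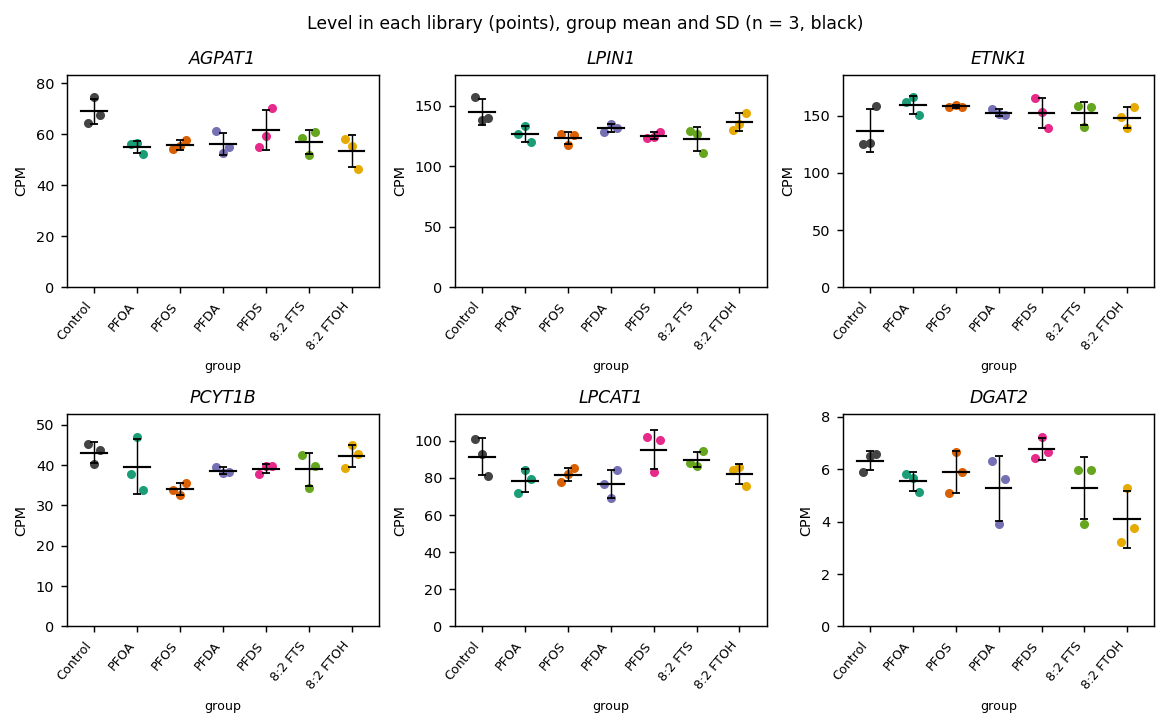
CPM of 6 named genes in each of the 21 libraries (points) by group, with the group mean and SD in black (n = 3); each axis starts at 0. AGPAT1 and LPIN1 lie below all controls in 17 of 18 exposed libraries, a count whose share over all genes was not worked out. ETNK1 overlaps control replicate 3, and DGAT2 is lowest with 8:2 FTOH.

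The AGPAT enzymes and glycerol-3-phosphate acyltransferases had no other called member. Their summed level was 78.5 ± 1.99 RPKM in the controls, against compound means of 72.6 to 78.2. AGPAT5, a mitochondrial form and the highest of the group, gave 123, 136 and 152 CPM in the controls. With exposure it gave 122, 137 and 136 with PFOA, 133, 144 and 146 with PFOS, 134, 136 and 141 with PFDA, 138, 139.7 and 151 with PFDS, 132, 126 and 139.5 with 8:2 FTS, and 137, 133 and 129 with 8:2 FTOH. The values overlap throughout, and the mean difference was -0.01 log2 (95% interval -0.12 to 0.11).

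Lipins act on the product of the AGPAT enzymes. LPIN1 (chr2:11677595-11827409, plus strand) encodes a phosphatidate phosphatase that also acts as a transcriptional coactivator, and gave 157, 138 and 139 CPM in the controls. With exposure its level was 127, 133 and 120.3 with PFOA, 127, 118 and 126 with PFOS, 128, 135 and 131 with PFDA, 123, 124 and 128 with PFDS, 129, 127 and 111 with 8:2 FTS, and 130.3, 135 and 144 with 8:2 FTOH. As for AGPAT1, 17 of 18 exposed libraries lay below the lowest control, here with 8:2 FTOH replicate 3 as the exception. The log2 difference was -0.18 for the mean of the compounds (95% interval -0.29 to -0.07) and did not pass the test (adjusted p = 0.145, edgeR). Without control replicate 1, the highest control, it was -0.12 (adjusted p = 0.648). Among single compounds it was -0.24 for 8:2 FTS, -0.23 for PFOS, -0.21 for PFDS, -0.19 for PFOA, -0.14 for PFDA and -0.09 for 8:2 FTOH, with adjusted p of 0.265 or above. The LPIN1 difference for PFOA was -0.13 both without control replicate 1 and with scaling by library size alone. The 3 lipins summed to 16.8 ± 0.621 RPKM in the controls and to compound means of 14.8 to 15.98.

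Diacylglycerol acyltransferases take the last step to triacylglycerol. DGAT1 gave 22.7, 20.6 and 16.1 CPM in the controls and 24.2, 17.9 and 21.1 with PFOA, 22.3, 19.7 and 18.8 with PFOS, 21.5, 17.9 and 21.9 with PFDA, 20.6, 22.6 and 22.6 with PFDS, 18.6, 23.98 and 19.8 with 8:2 FTS, and 21.2, 20.4 and 18.9 with 8:2 FTOH. The exposed values of DGAT1 overlap the controls for every compound, with a mean log2 difference of 0.07 (95% interval -0.12 to 0.27). DGAT2, the low member of the pair, gave 5.91, 6.49 and 6.57 CPM in the controls and 5.83, 5.67 and 5.14 with PFOA, 5.10, 6.68 and 5.91 with PFOS, 6.32, 3.90 and 5.61 with PFDA, 6.42, 7.25 and 6.65 with PFDS, 5.96, 3.92 and 5.98 with 8:2 FTS, and 3.21, 5.29 and 3.75 with 8:2 FTOH. All 3 libraries with 8:2 FTOH lay below the controls, at a log2 difference of -0.58 (95% interval -1.01 to -0.15, adjusted p = 0.448, edgeR), the largest among the members with a p under 0.05 for any compound, while the PFDS libraries lay about the top of the control range. The 8:2 FTOH libraries held 39, 134 and 29 counts of DGAT2. Its 8:2 FTOH difference ran from -0.87 to -0.43 when single libraries were left out. PNPLA2, the lipase that begins triacylglycerol breakdown, gave 27.1, 27.9 and 21.6 CPM in the controls and 24.4, 25.5 and 24.4 with PFOA, 28.2, 28.4 and 28.5 with PFOS, 24.6, 26.4 and 26.98 with PFDA, 26.7, 27.6 and 26.3 with PFDS, 25.3, 25.4 and 27.2 with 8:2 FTS, and 25.9, 28.03 and 22.8 with 8:2 FTOH. The 3 PFOS libraries lay just above all 3 controls, and the mean log2 difference was 0.04 (95% interval -0.12 to 0.20).

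In the choline branch, which ends in phosphatidylcholine, PCYT1B had the smallest p of any member for PFOS. PCYT1B (chrX:24558087-24672677, minus strand) gave 45.2, 40.2 and 43.7 CPM in the controls and 37.8, 47.03 and 33.7 with PFOA, 33.9, 32.5 and 35.5 with PFOS, 39.5, 38.1 and 38.2 with PFDA, 37.8, 39.7 and 39.9 with PFDS, 42.5, 34.4 and 39.8 with 8:2 FTS, and 39.3, 44.8 and 42.7 with 8:2 FTOH. The PFOS libraries were all below the controls, at a log2 difference of -0.34 (95% interval -0.54 to -0.14, adjusted p = 0.375, edgeR), as were those of PFDA and PFDS at -0.16 and -0.14, while PFOA replicate 2 was the highest of all 21 libraries. CHKA, the choline kinase that begins the branch, gave 30.4, 30.2 and 31.4 CPM in the controls and 26.9, 30.5 and 27.9 with PFOA, 32.6, 29.6 and 29.3 with PFOS, 35.02, 30.9 and 29.1 with PFDA, 31.6, 29.5 and 30.4 with PFDS, 28.5, 30.4 and 30.2 with 8:2 FTS, and 26.3, 29.96 and 31.4 with 8:2 FTOH. Exposed values of CHKA lay on both sides of the controls, and its mean log2 difference was -0.03 (95% interval -0.18 to 0.12). The 6 genes of the branch summed to 26.5 ± 0.711 RPKM in the controls and to compound means of 24.5 to 26.4.

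The ethanolamine branch held values in both directions, none of them called. ETNK1 (chr12:22625075-22690665, plus strand), the kinase that begins the branch, gave 126, 126 and 159 CPM in the controls and 162, 166 and 151 with PFOA, 158, 159.9 and 157 with PFOS, 156, 151 and 151 with PFDA, 165, 154 and 139 with PFDS, 159, 141 and 158 with 8:2 FTS, and 149, 139 and 157 with 8:2 FTOH. Every exposed library was above control replicates 1 and 2, whereas control replicate 3 lay among the exposed values and above 14 of the 18. The log2 difference was 0.22 for PFOA (adjusted p = 0.319, edgeR) and 0.17 for the mean of the compounds (adjusted p = 0.275). Without control replicate 3, the control with the high mitochondrial share, ETNK1 passed the edgeR test for PFOA (log2 0.34, adjusted p = 0.0285) and for the mean (0.29, adjusted p = 0.0206). Calls over all genes in that fit rose from 8 to 136 for PFOA and from 87 to 154 for the mean. The gain was thus not particular to ETNK1. What sets control replicate 3 apart was not tested.

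ETNK2, the second ethanolamine kinase, gave 22.4, 19.9 and 24.4 CPM in the controls and 19.9, 22.8 and 21.6 with PFOA, 23.7, 26.04 and 22.1 with PFOS, 23.1, 21.1 and 26.9 with PFDA, 24.7, 23.7 and 25.4 with PFDS, 24.3, 23.1 and 26.3 with 8:2 FTS, and 26.8, 30.99 and 24.7 with 8:2 FTOH. All 3 libraries with 8:2 FTOH were above the controls, at a log2 difference of 0.32 (95% interval 0.09 to 0.55, adjusted p = 0.417, edgeR). PCYT2, the regulated cytidylyl transferase of the branch, gave 86.1, 82.5 and 69.2 CPM in the controls and 67.4, 69.9 and 70.4 with PFOA, 71.7, 86.3 and 71.96 with PFOS, 69.8, 76.6 and 80.4 with PFDA, 44.4, 69.7 and 74.9 with PFDS, 67.2, 66.4 and 66.6 with 8:2 FTS, and 81.4, 74.8 and 56.6 with 8:2 FTOH. Its low value with PFDS came from replicate 1, and the PFDS log2 difference of -0.32 (95% interval -0.63 to -0.01, adjusted p = 0.862, edgeR) became -0.13 without that library. SELENOI gave 198, 196 and 206 CPM in the controls and 185, 209.6 and 182 with PFOA, 178, 192 and 199 with PFOS, 183, 175 and 197 with PFDA, 197, 181 and 205 with PFDS, 189.7, 159 and 187 with 8:2 FTS, and 184, 174 and 178 with 8:2 FTOH. Its libraries with 8:2 FTS and 8:2 FTOH were all below the controls, each at a log2 difference of -0.16 (adjusted p = 0.602 and 0.596, edgeR). Without 8:2 FTS replicate 2, the lowest of all 21 libraries, the SELENOI difference for 8:2 FTS was -0.09. The 4 genes summed to 50.3 ± 1.33 RPKM in the controls and to compound means of 47.7 to 50.7.

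Head group exchange, which makes phosphatidylserine from the other phospholipids, was led by PTDSS1. PTDSS1 gave 51.9, 54.3 and 55.7 CPM in the controls and 51.6, 61.4 and 48.9 with PFOA, 49.7, 58.0 and 56.2 with PFOS, 52.2, 51.2 and 57.1 with PFDA, 61.98, 49.8 and 61.6 with PFDS, 56.5, 52.97 and 60.3 with 8:2 FTS, and 55.3, 59.5 and 52.9 with 8:2 FTOH. The values overlap for every compound, and the mean log2 difference was 0.04 (95% interval -0.10 to 0.18). In the CDP-diacylglycerol branch, CDS2 gave 204, 201 and 214 CPM in the controls and 175, 215 and 189.6 with PFOA, 194, 205 and 216 with PFOS, 200.1, 187 and 212 with PFDA, 212, 199 and 237 with PFDS, 199, 196 and 210.4 with 8:2 FTS, and 203, 211 and 189 with 8:2 FTOH. Its exposed values lay on both sides of the controls, with a mean log2 difference of -0.03 (95% interval -0.14 to 0.09).

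Among the lysophospholipid acyltransferases, MBOAT2, which acts on lysophosphatidylethanolamine and lysophosphatidylcholine, gave 203, 208 and 229 CPM in the controls and 207, 225 and 211 with PFOA, 202, 211 and 219 with PFOS, 203, 202 and 221 with PFDA, 199.9, 208 and 228 with PFDS, 209, 206 and 202 with 8:2 FTS, and 208, 199.8 and 220.2 with 8:2 FTOH. None of its 18 exposed libraries exceeded the highest control, and its mean log2 difference of -0.02 had the narrowest interval of the 41 members (-0.13 to 0.09). LPCAT1, which makes the disaturated phosphatidylcholine of lung surfactant and also acts in other tissues, gave 101, 92.9 and 80.8 CPM in the controls and 71.98, 84.1 and 79.7 with PFOA, 77.9, 82.3 and 85.3 with PFOS, 76.7, 69.3 and 84.04 with PFDA, 102, 83.2 and 100.4 with PFDS, 88.3, 86.6 and 94.6 with 8:2 FTS, and 84.5, 85.9 and 75.9 with 8:2 FTOH. Its lowest group mean came with PFDA, at a log2 difference of -0.25 (95% interval -0.43 to -0.08, adjusted p = 0.43, edgeR), and its highest with PFDS, at 0.06. LPCAT4 gave 41.5, 39.8 and 45.97 CPM in the controls and 49.8, 42.6 and 47.2 with PFOA, 50.8, 55.1 and 44.2 with PFOS, 51.2, 47.96 and 49.8 with PFDA, 42.8, 49.8 and 44.1 with PFDS, 43.7, 53.6 and 40.2 with 8:2 FTS, and 46.7, 44.2 and 48.9 with 8:2 FTOH. All PFDA libraries of LPCAT4 were above the controls, at 0.23 log2 (95% interval 0.04 to 0.42, adjusted p = 0.528, edgeR), and none of the 18 exposed libraries was below the lowest control. The 7 genes summed to 67.5 ± 0.937 RPKM in the controls and to compound means of 64.96 to 68.1.

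**Figure D4:**
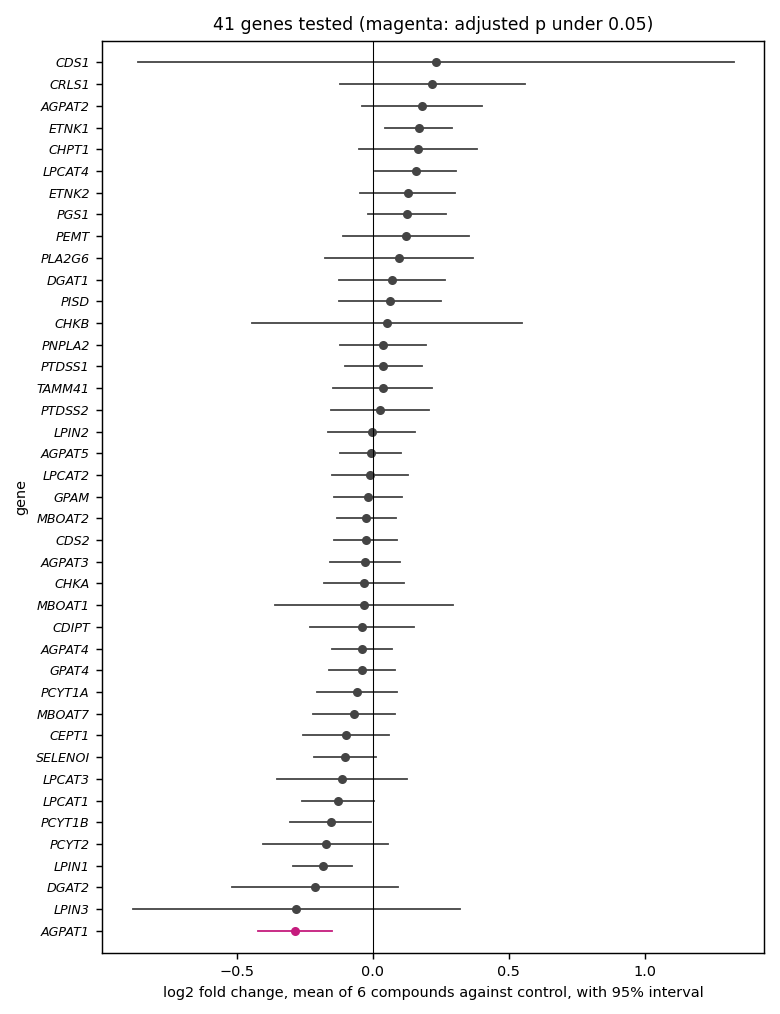
Log2 fold change of the mean of 6 compounds against control for the 41 genes tested, with 95% intervals; magenta marks an adjusted p under 0.05. AGPAT1 (-0.29) is the 1 gene past the threshold, and 39 of the 41 intervals lie within 1.5-fold in either direction.

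The compounds were then compared with one another at the same dose and time in 6 pairs. No member differed in any pair at an adjusted p of 0.05, adjusted over all genes within each pair (edgeR), and DESeq2 called 0 members in each. All genes tested gave 0% for PFDA against PFOA, 0.00402% for PFDS against PFOS, and 0% for PFOS against PFOA, PFDS against PFDA, 8:2 FTS against 8:2 FTOH and 8:2 FTS against PFDS. At an unadjusted p under 0.05 there were 0, 2, 4, 2, 2 and 0 of 41 members, in that order, against 2.93%, 4.37%, 4.9%, 5.59%, 3.26% and 4.1% of all genes. Of the 41 members, 35 to 37 had an interval within 1.5-fold in each pair, so differences beyond that lay outside the interval for most of them.

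For chain length in the carboxylic acids, PFDA against PFOA, the smallest p belonged to CHKA at a log2 difference of 0.16 (95% interval -0.04 to 0.35). In the sulfonic acids, PFDS against PFOS, LPCAT1 gave 0.22 (95% interval 0.04 to 0.40) and PCYT1B 0.21 (95% interval 0.00 to 0.41). For head group at the shorter chain, PFOS against PFOA, PEMT, which methylates phosphatidylethanolamine to phosphatidylcholine, gave 0.37 (95% interval 0.06 to 0.68). At the longer chain, PFDS against PFDA, LPCAT1 gave 0.31 (95% interval 0.13 to 0.49, adjusted p = 0.89, edgeR), the smallest p of any member in any pair. Between the fluorotelomers, 8:2 FTS against 8:2 FTOH, PCYT1A gave -0.23 (95% interval -0.43 to -0.03). Its 8:2 FTOH libraries gave 35.8, 40.9 and 47.2 CPM, the last from the smallest library, and overlapped those of 8:2 FTS (35.3, 33.5 and 36.4). For partial against full fluorination of the sulfonic acid, 8:2 FTS against PFDS, LPIN2 gave 0.19 (95% interval -0.02 to 0.41). PEMT, PCYT1A and LPIN2 are named after their values were seen, as the members with the smallest p in their pair. AGPAT1 differences between compounds ran from 0.15 (PFDS against PFOS, 95% interval -0.04 to 0.34) to -0.12 (8:2 FTS against PFDS, 95% interval -0.30 to 0.07).

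**Figure D5:**
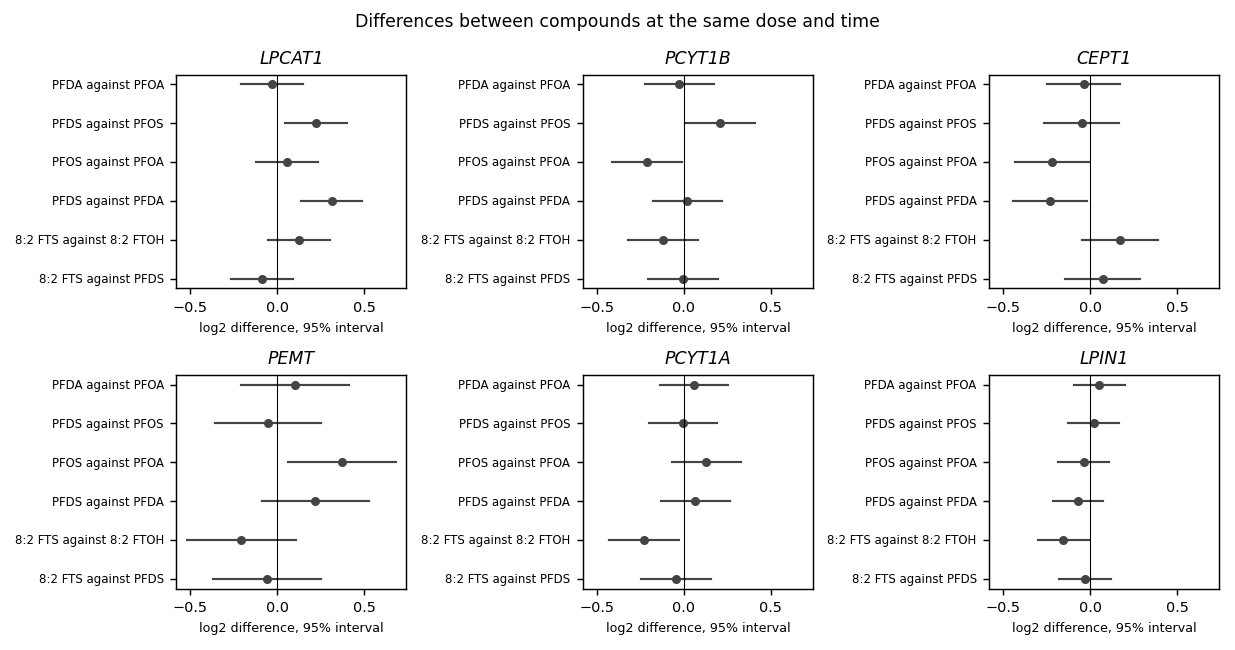
Log2 difference between compounds at the same dose and time for 6 genes, with 95% intervals, first-named compound minus second. LPCAT1 in PFDS against PFDA (0.31) lies farthest from 0 relative to its interval, and no difference passed the test after adjustment.

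Neighbouring lipid genes were read from 7 lists for the mean of the compounds (edgeR, with all genes at 0.35% called, 9.98% at an unadjusted p under 0.05 and a median log2 of 0.00). In that contrast 49.1% of all genes and 58.5% of the members had a negative log2 difference. Of 15 lipid droplet and triacylglycerol breakdown genes tested, 0 were called (3 at an unadjusted p under 0.05), with a median of 0.06 and 11 positive. They included PNPLA3 (log2 -0.44, adjusted p = 0.293) and PLIN4 (log2 0.48, adjusted p = 0.437). Of 22 phospholipases and glycerophosphodiesterases, 0 were called (1 unadjusted), with LYPLA1 (log2 0.15, adjusted p = 0.499) and GDE1 (log2 -0.15, adjusted p = 0.514) at the smallest p. Of 9 genes of choline, serine and inositol supply, 0 were called (2 unadjusted), with the choline and haem carriers FLVCR1 (log2 -0.18, adjusted p = 0.166) and FLVCR2 (log2 -0.69, adjusted p = 0.496) first.

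The 9 ether lipid genes had 0 calls (0 unadjusted), led by the fatty acyl reductase FAR1 (log2 0.11, adjusted p = 0.588) and GNPAT (log2 -0.08, adjusted p = 0.676). The 11 genes of cardiolipin maturation had 0 calls (0 unadjusted), led by TAFAZZIN (log2 0.20, adjusted p = 0.54) and PRELID1 (log2 -0.16, adjusted p = 0.56). Among 10 genes of acyl-CoA and glycerol-3-phosphate supply, 0 were called (1 unadjusted) and 8 had a negative log2 difference, with ACSL3 (log2 -0.15, adjusted p = 0.256) and ACSL4 (log2 -0.10, adjusted p = 0.63), long-chain acyl-CoA synthetases, first. DESeq2 also called 0 genes in each of these 6 lists.

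Of 17 regulators of lipid synthesis tested, 1 was called. INSIG1, the endoplasmic reticulum anchor of the sterol-sensing SREBP complex and itself a sterol-regulated gene, gave 152, 164 and 166 CPM in the controls and 125, 148 and 146 with PFOA, 125, 144 and 135 with PFOS, 131, 141 and 146 with PFDA, 104, 132 and 155 with PFDS, 121, 121 and 115 with 8:2 FTS, and 135, 132 and 121 with 8:2 FTOH. It fell by 0.28 on the log2 scale for the mean of the compounds (adjusted p = 0.0397, edgeR) and by 0.43 for 8:2 FTS (adjusted p = 0.0343, edgeR), and DESeq2 also called it for the mean. All 3 libraries were below the controls with each of PFOA, PFOS, PFDA, 8:2 FTS and 8:2 FTOH, while PFDS replicate 3 overlapped them. For the mean the call held in 14 of 28 alternatives (log2 -0.32 to -0.23, adjusted p 0.000816 to 0.471), and for 8:2 FTS in 19 of 29 (adjusted p 0.000186 to 0.263). Without control replicate 1, 2 or 3 the adjusted p for the mean was 0.148, 0.471 and 0.139, and for 8:2 FTS 0.0645, 0.263 and 0.0848. In these fits the calls over all genes were 6, 4 and 154 for the mean, against 87 with all libraries. For 8:2 FTS they were 6, 4 and 41, against 21. The call for the mean was also lost, at adjusted p of 0.0524 to 0.0726, without 8:2 FTOH replicate 2, 8:2 FTS replicate 1 or 2, PFDA replicate 1, PFDS replicate 2, PFOA replicate 1 or 3, or PFOS replicate 1 or 3. That for 8:2 FTS was also lost, at 0.0525 to 0.203, without 8:2 FTS replicate 1, 2 or 3, 8:2 FTOH replicate 2, PFDA replicate 1 or PFOA replicate 3. Scaling by library size alone ended the call for the mean (adjusted p = 0.0779), and the 19 libraries of the authors' normalized table ended both (0.155 for the mean and 0.08 for 8:2 FTS).

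GAP43, a growth cone protein among the markers of cell type, also fell in the contrast that called AGPAT1. It fell by 0.34 on the log2 scale for the mean of the compounds (adjusted p = 0.00978, edgeR), the 1 call among the 12 sympathetic neuron markers, whose median log2 was -0.06 and whose exposed sums ran from 5295 to 6502 CPM. GAP43 gave 304, 302 and 293 CPM in the controls and 215, 282 and 224 with PFOA, 228, 251 and 246 with PFOS, 226, 240.5 and 238 with PFDA, 199.9, 219 and 273 with PFDS, 238, 217 and 238 with 8:2 FTS, and 261, 238 and 236 with 8:2 FTOH, so that all 18 exposed libraries lay below the 3 controls. Of all genes tested, 0.342% had every exposed library below the controls, among them PNPLA3 of the lipid droplet list. Leaving out control replicate 1 (adjusted p = 0.126) or control replicate 2 (0.203) ended the GAP43 call in edgeR. Over all genes those 2 fits left 6 and 4 calls, against 87 with all libraries.

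All 8 cycling cell markers had a negative log2 difference (median -0.16, summed level 1954 to 2092 CPM in the controls and 1635 to 2122 after exposure). Among all genes 49.1% were negative. None was called with edgeR, 5 had an unadjusted p under 0.05, and DESeq2 called MKI67. They were led by MKI67 (log2 -0.23, adjusted p = 0.0966) and TYMS (log2 -0.24, adjusted p = 0.136). Of the 10 mesenchymal markers tested 0 were called (2 unadjusted), 9 were negative and their sum ran from 435 to 543 CPM after exposure, with VIM (log2 -0.23, adjusted p = 0.309) and COL3A1 (log2 -0.30, adjusted p = 0.409) first. Of the 5 Schwann, glial, endothelial and blood markers tested 0 were called (0 unadjusted), with VWF (log2 -0.25, adjusted p = 0.812) first. DESeq2 called 0 in both of these lists. The part of cell state, depth, mitochondrial share or methanol in the AGPAT1 difference was not tested, and in bulk RNA fewer cells of a type and less RNA per cell cannot be told apart. No methanol is stated for the controls. Differences in the mean of the compounds, such as those of AGPAT1, INSIG1 and GAP43, therefore cannot be told apart from a solvent effect.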

How the data were processed

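The authors' deposited raw table gives counts per gene. Per the file headers, featureCounts 2.0.1 was run without strand options and reads mapping to several places or genes were not counted. Per the submitters' processing notes, reads were aligned with HISAT2 to hg38, and per the labels' protocols libraries came from a stranded ribosome-depleted kit. The authors' deposited normalized table (unit signal, 37476 genes, 19 libraries) equals raw counts divided by 1 factor per library: 100% of values gave the raw count within 0.01 reads, so the raw counts were tested.

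Genes were filtered with filterByExpr (24879 left), TMM-scaled and fitted over all 21 libraries with edgeR 4.0.16 (quasi-likelihood, robust, R 4.3.3). CPM use TMM-scaled totals and RPKM the table's exon length. Benjamini-Hochberg adjustment ran over all genes within each of 14 comparisons. The script was tested on simulated data. Alternatives were DESeq2 1.42.0 (test and size factors), library size scaling, 2 other filters, fits of only the groups compared, a replicate block, 21 leave-one-out fits and the 19 libraries. Members and lists were chosen with earlier results of these data known. Libraries were grouped by the treatment in their labels. Named genes were any called member, the 3 smallest p per compound, the highest RPKM of each of 9 roles and, per list, the called genes or the 2 smallest p.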

Additional observations from a re-analysis of the deposited data

How the results depend on the processing

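The count of members called was 0 in all alternatives run for PFOS, PFDA, PFDS and 8:2 FTS against control, for the 6 compound pairs and for any of 7 groups. PFOA against control went from 0 to 1 with DESeq2 (AGPAT1, adjusted p = 0.0485) and with the 19 libraries (ETNK1, adjusted p = 0.0239), and ranged from 0 to 1 when single libraries were left out, the 1 being ETNK1 without control replicate 3. 8:2 FTOH against control went from 0 to 1 with no filter on low counts (AGPAT1, adjusted p = 0.0252). The mean of the compounds went from 1 to 0 with library size scaling and with the replicate block (AGPAT1 log2 -0.29, adjusted p = 0.0565), and ranged from 0 to 1 when single libraries were left out. Without control replicate 3, and with the 19 libraries, the 1 member called was ETNK1 in place of AGPAT1.

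The log2 difference of AGPAT1 for the mean ran from -0.33 to -0.22 over 28 alternatives (adjusted p 0.00531 to 0.651) and passed in 14. No direction was reversed. Of 529 values of single named members under alternatives, 509 kept their side of the threshold, 14 lost it and 6 gained it. Counts over all genes moved far more: for the mean of the compounds 87 became 4 to 286, for PFOA 8 became 1 to 169 and for 8:2 FTS 21 became 4 to 126.

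Same-numbered libraries did not resemble one another on average. Of 63 same-numbered pairs of libraries 16 correlated above 0.1 in their deviations, with r from -0.434 to 0.479. The mean r was -0.000796, against 0.00174 for the 126 other pairs, and 7 of 21 libraries correlated best with their own number. A batch shared by only some groups was not tested. The smallest library, 7680024 counts, and levels under 1 RPKM limit the precision for CDS1, LPIN3, DGAT2, CHKB, CRLS1 and PLA2G6.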
